A study of Mus musculus with 3008 samples.

Results

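Translation initiation factors (eIFs) and elongation factors (eEFs) were followed in single Foxp3+ regulatory T cells (Tregs) from the colon lamina propria and the spleen of mice. The members are all genes of the deposited count table whose symbol starts with Eif and a digit of 1 to 6, or with Eef and 1 or 2, and that had at least 30 unique molecular identifiers (UMIs, each marking 1 captured RNA molecule) over all cells. Of 63 such symbols, 60 reached that minimum, 52 of them Eif genes and 8 Eef genes, out of 9580 genes with the same minimum and 23725 genes in the table. Eif4ebp3 with 1 UMI, Eif4e1b with 2 UMIs and Eef1a2 with 0 UMIs were left out. Libraries were made by inDrops, which captures single cells in droplets with barcoded oligo-dT primers, from 3008 cells in all: colon 1 with 20.6% of them, colon 2 with 1772 cells (58.9%), and spleen with 20.5%. In every group the donors were male B6 Foxp3-Ires-Gfp reporter mice aged 7 months, and the cells were sorted as live TCRb+ CD4+ GFP+ cells. Colons were digested with collagenase and dispase, while spleens were dissociated mechanically, so tissue and dissociation cannot be told apart in any difference below. The labels name no animal, and there is only 1 spleen library. Each tissue therefore counts as 1 sample, no p-value is given, and the intervals printed cover counting error only.

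Translation begins when eIF2 carries the initiator tRNA to the small ribosomal subunit, which eIF1, eIF1A, eIF3 and eIF5 hold ready to scan for the start codon. The mRNA is brought in by eIF4F, made of the cap-binding protein eIF4E, the scaffold eIF4G and the helicase eIF4A, and eIF4E-binding proteins block this step until the kinase mTORC1 phosphorylates them. During elongation eEF1A delivers each aminoacyl-tRNA, the eEF1B complex recharges eEF1A with GTP, and eEF2 moves the ribosome along. The mRNAs of ribosomal proteins, of eEF1A and eEF1B and of some initiation factors are known as TOP mRNAs: they start with a C followed by an unbroken run of pyrimidines, and their translation is controlled together downstream of mTORC1. In T cells, activation is known to raise protein synthesis through mTORC1 signalling.

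The libraries held 1253246 UMIs in colon 1, 3916649 in colon 2 and 1255946 in spleen, with medians of 1767, 2026.5 and 1847 UMIs per cell. Reads per UMI were fewer in colon 2 (median 26.7) than in colon 1 (61.6) or spleen (58.7). Of the 12 listed T cell and Treg markers, 9 were in the table and none of these was at 0, and Foxp3 itself was present in each library at 452.4, 306.1 and 281.9 UMI counts per 1000000 (CPM) in colon 1, colon 2 and spleen. The summed CPM of 12 macrophage and dendritic cell markers was 240.97 in colon 1, 238.98 in colon 2 and 105.1 in spleen, and Csf1r was at 0 in all libraries. Over the other 7 lists of cell types the highest sum was that of CD8 T cells and NK cells in spleen, at 198.3 CPM. Plasma cell markers, 4 of 7 of which are in the table and none of those at 0, summed to 121.3 CPM in colon 1 and 175.4 CPM in colon 2, against 62.90 CPM in spleen. Cells with UMIs of 2 or more of them made up 0.162% in colon 1 and 0.339% in colon 2, against 0% in spleen. By the same rule, CD8 T cell and NK cell markers gave 1.62% in colon 1, 1.02% in colon 2 and 2.27% in spleen. Macrophage and dendritic cell markers gave 0.808%, 1.24% and 0.162% in the same order. The part of such cells in the factor levels was not tested beyond leaving out cells with UMIs of 2 or more markers of another type. Barcodes that occurred in more than 1 library numbered 25. No factor's colon to spleen ratio left its counting interval when the cells in either of these groups were removed.

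Levels of the translation machinery differed modestly between the tissues. Relative to spleen, 0 members were 2-fold or more higher in both colon libraries and 0 were as much lower, while 10.2% of all 9580 genes were higher and 5.40% lower by that rule. In colon 1 alone 1 member was 2-fold higher (12.8% of all genes) and 4 were 2-fold lower (11.3%), and in colon 2 alone there was 1 of each (14.2% and 9.78%). At 1.5-fold, 4 members were higher in both colon libraries (Eif1, Eif4e, Eif4ebp1 and Eif5a2) and 6 were lower (Eef1b2, Eef1g, Eef2kmt, Eif2ak4, Eif3f and Eif4enif1). The same 1.5-fold rule took 17.1% of all genes as higher and 13.3% as lower, so both shares of the 60 members were below those of all genes. The genes compared were not matched to the members by UMI count, and counting error is larger in genes with few UMIs. Colon 1 taken alone had 13 members lower by 1.5-fold, beside 2202 of the 9580 genes. When totals were taken without ribosomal protein genes, 2 members were higher (12.8% of all genes) and 10 lower (20.5%) by 1.5-fold in both, and 1 was 2-fold lower (8.56%). Eif1 (0.48 in log2 in colon 1) and Eif4e (0.57 in colon 2) were no longer past 1.5-fold under those totals, and Eif4ebp1 and Eif5a2 were. In cells thinned to 1000 UMIs each, 3 members were lower by 1.5-fold in place of 6. By any amount, 27 members were lower in both colon libraries, 19 were higher in both and 14 differed in sign between them, against 38.8% of all genes lower and 39.5% higher. The median log2 ratio of the members was -0.13 for colon 1 and -0.04 for colon 2, beside 0.00 and 0.01 over all genes. Members that were higher in both colon libraries thus sit beside members that were lower. The plot of log2 ratios groups them by role, and both directions occur within eIF3, eIF4F and eEF1B.

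**Figure D1:**
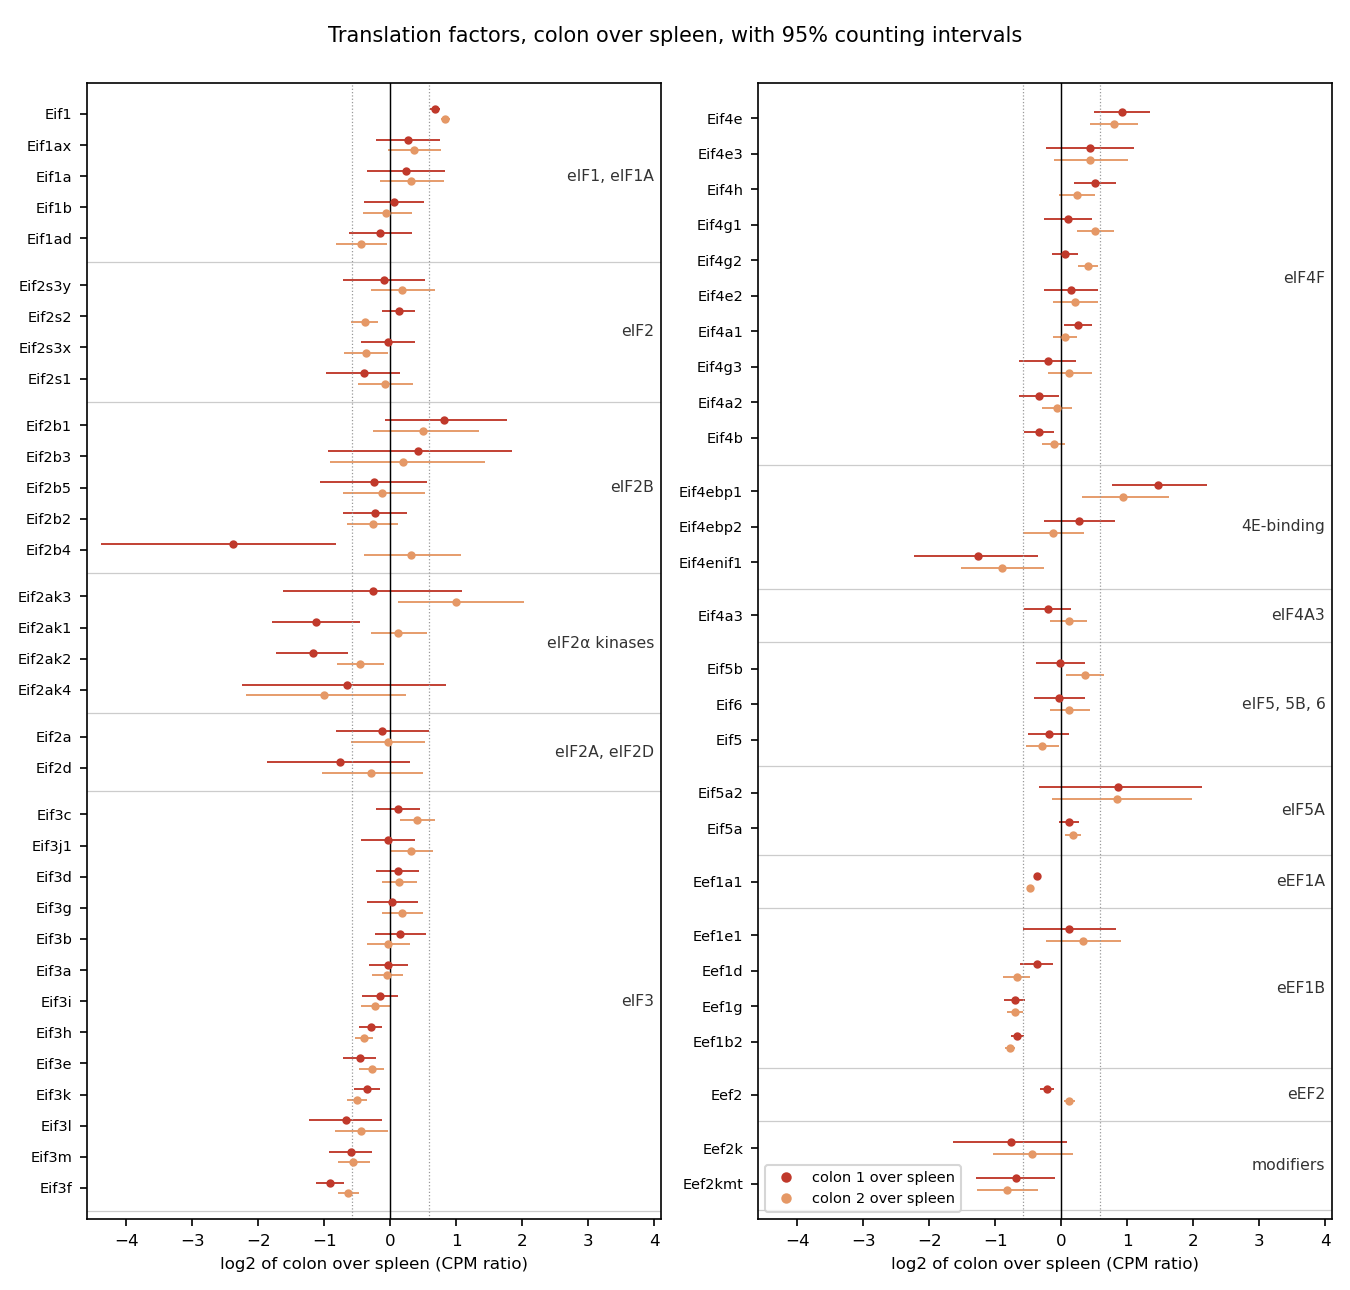
Log2 ratio of CPM in colon 1 (dark red) and colon 2 (orange) over spleen for each of the 60 members, grouped by role, with 95% exact conditional binomial intervals (counting error only). Dotted lines mark 1.5-fold either way. The eEF1B subunits Eef1b2, Eef1g and Eef1d and the eIF3 subunits from Eif3h to Eif3f lie left of 0 in both libraries, while Eif1, Eif4e and Eif4ebp1 lie to the right.

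The bases around the listed transcription starts are given for members that the results turn on, because a TOP mRNA is defined by its first bases. Each line holds the 15 bases before and the 15 bases from a RefSeq start on (assembly GRCm38.p6), on the strand of the gene, with the longest run of C and T in capitals.
Eef1a1: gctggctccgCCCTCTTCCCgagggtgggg
Eif3f: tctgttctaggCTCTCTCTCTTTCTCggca
Eif3l: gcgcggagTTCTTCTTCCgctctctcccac
Eif2s3x: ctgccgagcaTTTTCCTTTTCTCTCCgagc
Eif2s3y: gcggaggccacagccaCTTCCTTCTTTCgt
Eef1b2: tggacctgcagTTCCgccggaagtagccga
Eef2: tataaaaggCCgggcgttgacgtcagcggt
Eif1: gcgCTggcgtcacaggggcggctatataag
Eif4a1: acaaagtaacgTCacgtcgagttgcagagc
These windows are at chr9:78481710-78481739 on the minus strand for Eef1a1, chr7:108934400-108934429 on the plus strand for Eif3f, chr15:79075208-79075237 on the plus strand for Eif3l and chrX:94212637-94212666 on the minus strand for Eif2s3x. Those of the other genes are at chrY:1010580-1010609 on the plus strand for Eif2s3y, chr1:63176816-63176845 on the plus strand for Eef1b2, chr10:81176616-81176645 on the plus strand for Eef2, chr11:100319934-100319963 on the plus strand for Eif1 and chr11:69672409-69672438 on the minus strand for Eif4a1. The runs span 10 bases in Eef1a1, 15 in Eif3f, 10 in Eif3l, 16 in Eif2s3x and 12 in Eif2s3y. In the other windows the longest run was 4 bases in Eef1b2 and 2 in each of Eef2, Eif1 and Eif4a1. Run length did not follow the list of known TOP mRNAs used further on: Eef1b2 and Eef2 are on it with short runs, while Eif3l, Eif2s3x and Eif2s3y have long runs and are not on it. A listed start can lie away from the start used in these cells, and that distance was not measured. The runs are those of genomic bases around listed starts and do not tell which mRNAs are TOP mRNAs.

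A run of 8 or more C or T within the 30-base window was counted in all members, with the run length and window chosen after seeing the sequences. RefSeq starts matched 49 of the 60 members. The members without an entry were Eef1d, Eef1g, Eif1a, Eif2b3, Eif3e, Eif3h, Eif3i, Eif4e3, Eif4ebp1, Eif4g2 and Eif6. A run was present at any start of 10 matched members (20.4%), compared with 42.2% of 64 matched ribosomal protein genes and 14.9% of 7331 matched genes with the UMI minimum. On the opposite strand the shares were 10.2%, 4.7% and 14.9% in the same order. Among the 22 matched members that were lower in both colon libraries, 8 had a run (36.4%): Eef1a1, Eif2ak4, Eif2b2, Eif2b5, Eif2s3x, Eif3f, Eif3l and Eif4enif1. The other 2 members with a run were Eif2s3y, which differed in sign between the colon libraries, and Eif4e, which was higher in both. The run of Eif4e lies wholly before its listed start, and no run of Eif2ak4, Eif2b2, Eif2s3y or Eif4enif1 covers a listed start base. These counts are therefore no counts of TOP mRNAs. On the opposite strand, 2 of the 22 matched members lower in both colon libraries had such a run (9.1%). No share was taken over all genes lower in both colon libraries, so 36.4% is not read as an enrichment.

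Of the 8 Eef genes, 6 were lower in both colon libraries by any amount, among them Eef1a1 and the eEF1B genes Eef1b2, Eef1d and Eef1g, while Eef1e1 was above spleen in both and Eef2 differed in sign. Eef1a1, the main eEF1A gene of most tissues (mm10 9:78478449-78489151), had the most UMIs of all members, at 6200.7 CPM in colon 1 and 5753.1 CPM in colon 2, against 8010.7 CPM in spleen. Both colon libraries were below spleen, by a log2 ratio of -0.37 (95% interval -0.41 to -0.33) in colon 1 and -0.48 (-0.51 to -0.44) in colon 2. The muscle and neuron paralog Eef1a2 had no UMI in any library. Eef1b2, which encodes the subunit of eEF1B that exchanges GDP for GTP on eEF1A (1:63176825-63180486), had 1088.4 CPM in colon 1 and 1004.4 CPM in colon 2, against 1726.2 CPM in spleen. Eef1g, whose product anchors the eEF1B complex (19:8967041-8978479), had 425.3 and 428.2 CPM in colon 1 and colon 2, against 695.1 CPM in spleen. Both genes were lower in each colon library, with log2 ratios of -0.67 (-0.76 to -0.57) and -0.78 (-0.86 to -0.70) for Eef1b2 and of -0.71 (-0.87 to -0.55) and -0.70 (-0.82 to -0.58) for Eef1g. Eef1d, the second exchange subunit (15:75894205-75909556), had 184.3 and 149.1 CPM in colon 1 and colon 2, against 238.1 CPM in spleen, and stayed within 1.5-fold in colon 1. Its gene overlaps Naprt on the same strand, and reads of the overlap cannot be told apart in these counts. Eef1e1, a multisynthetase complex component that resembles eEF1B subunits and is no elongation factor by function, had log2 ratios of 0.12 and 0.32 with intervals that include 0.

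The translocase eEF2 did not follow eEF1. Eef2 (10:81176631-81182498) had 1022.1 CPM in colon 1 and 1294.98 CPM in colon 2, against 1189.5 CPM in spleen, so that spleen lay between both colon libraries. Colon 1 gave a log2 ratio of -0.22 (-0.33 to -0.11) and colon 2 one of 0.12 (0.04 to 0.21), intervals that do not overlap each other. Eef2k, the kinase that inactivates eEF2, had 15.96 and 19.91 CPM in colon 1 and colon 2, against 27.07 CPM in spleen, on 20, 78 and 34 UMIs in colon 1, colon 2 and spleen, and both intervals of its ratio include 0. Eef2kmt, a methyltransferase that acts on eEF2, had 31.12 and 28.34 CPM in colon 1 and colon 2, against 50.16 CPM in spleen. It was thus 1.61 times lower in colon 1 and 1.77 times lower in colon 2 than in spleen, on 39 UMIs in colon 1 and 63 in spleen. Of the 8 Eef genes, Eef1b2, Eef1g and the methyltransferase gene Eef2kmt were at least 1.5-fold lower in both colon libraries (13.3% of all genes) and none was higher (17.1%).

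**Figure D2:**
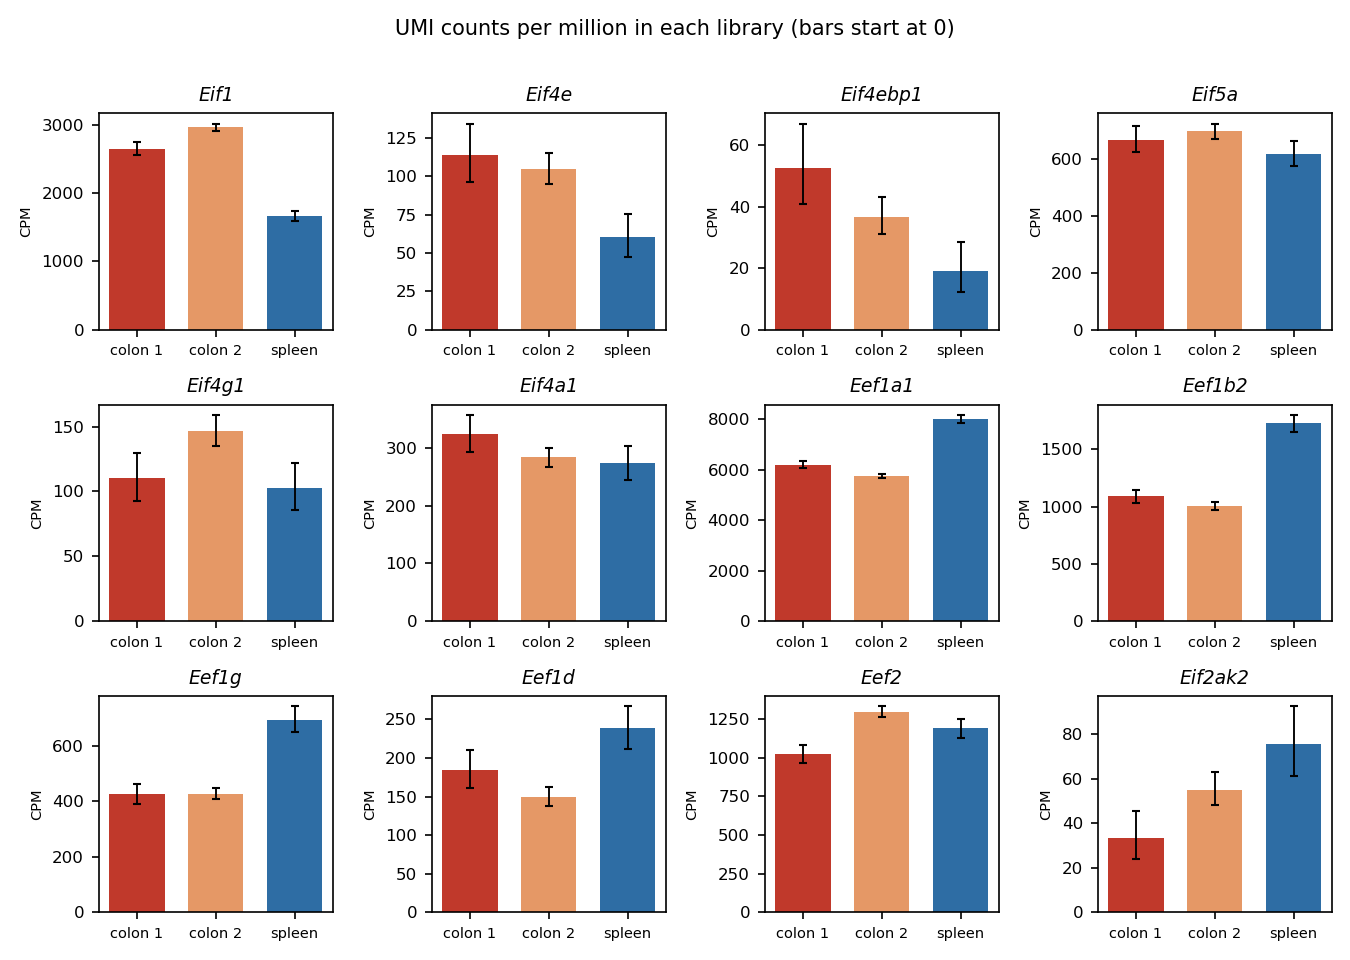
CPM of 12 members in colon 1, colon 2 and spleen, each from the summed UMIs of 1 library, with 95% exact Poisson intervals as error bars (counting error only). Eif1, Eif4e and Eif4ebp1 are above spleen in each colon library, Eef1a1, Eef1b2, Eef1g, Eef1d and Eif2ak2 are lower, and for Eef2 spleen lies between both colon libraries.

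Among the factors that choose the start codon, Eif1 stood out. Eif1 (11:100319885-100322096), whose product keeps the scanning ribosome from settling on a wrong codon, had the most UMIs of the initiation factors, at 2657.9 CPM in colon 1 and 2969.9 CPM in colon 2, against 1664.9 CPM in spleen. Both colon libraries were higher, by log2 ratios of 0.67 (0.60 to 0.75) and 0.83 (0.77 to 0.90). Its close paralog Eif1b had 67.03 and 62.04 CPM in colon 1 and colon 2, against 64.49 CPM in spleen. Eif1a and Eif1ax, which encode forms of eIF1A, had log2 ratios between 0.23 and 0.36 with intervals that include 0. Eif1ad, an eIF1A domain gene that overlaps Banf1 on the opposite strand, had ratios of -0.15 and -0.45. How reads that match both a gene and a close copy were assigned is not given in the sources used here, so paralog pairs such as Eif1 and Eif1b are uncertain.

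The ternary complex factor eIF2 and its exchange factor eIF2B held no member past 1.5-fold in both colon libraries. Eif2s1, the alpha subunit on which stress kinases act (12:78861819-78887010), had 39.10 and 49.02 CPM in colon 1 and colon 2, against 51.75 CPM in spleen, and both intervals of its ratio include 0. Eif2s2, the beta subunit, had 231.4 CPM in colon 1 and 161.6 CPM in colon 2, against 211.8 CPM in spleen. The gamma subunit is encoded on both sex chromosomes, with 82.98, 65.87 and 85.19 CPM for Eif2s3x and 35.91, 43.15 and 38.22 CPM for Eif2s3y in colon 1, colon 2 and spleen. The coding sequences of this pair are close, and the split between them rests on the authors' read assignment. Of the eIF2B subunits, Eif2b1 had 23.94 and 19.15 CPM in colon 1 and colon 2, against 13.54 CPM in spleen, on 30, 75 and 17 UMIs. Eif2b4 gave opposite answers in the colon libraries, with 3.192 CPM in colon 1 (4 UMIs) and 20.68 CPM in colon 2, against 16.72 CPM in spleen. Eif2b2, Eif2b3 and Eif2b5 stayed between -0.27 and 0.42 on the log2 scale with intervals that include 0.

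The kinases that phosphorylate eIF2 alpha were sparse. Eif2ak2, which encodes the double-stranded RNA sensor PKR (17:78852564-78882573), had 33.51 CPM in colon 1 and 55.15 CPM in colon 2, against 75.64 CPM in spleen. Both colon libraries were lower, by log2 ratios of -1.17 (-1.73 to -0.64) and -0.46 (-0.81 to -0.09). Eif2ak1, the heme-regulated kinase HRI, had 23.14 CPM in colon 1 and 54.64 CPM in colon 2, against 50.16 CPM in spleen, and 1 colon 2 cell alone gave 23 UMIs. Its gene overlaps Aimp2 and Ankrd61 on the opposite strand. Eif2ak3, the endoplasmic reticulum stress kinase PERK, had 7.979 CPM in colon 1 and 19.15 CPM in colon 2, against 9.555 CPM in spleen, on 10, 75 and 12 UMIs. Eif2ak4, the amino acid starvation sensor GCN2, had 5.585 and 4.340 CPM in colon 1 and colon 2, against 8.758 CPM in spleen, on 7, 17 and 11 UMIs. It met the 1.5-fold rule as lower, but both intervals of its ratio include 0. The related factors Eif2a and Eif2d, which can deliver tRNA without eIF2, also had intervals that include 0 in both colon libraries.

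In eIF3, the large scaffold on the small subunit, 6 of 13 measured subunits were below spleen in both colon libraries with intervals that exclude 0, and Eif3f alone passed 1.5-fold. Eif3f (7:108934417-108942951) had 224.2 CPM in colon 1 and 271.7 CPM in colon 2, against 421.99 CPM in spleen, with log2 ratios of -0.91 (-1.13 to -0.70) and -0.64 (-0.79 to -0.48). Eif3h, its partner with the same fold, had 391.8 and 363.6 CPM in colon 1 and colon 2, against 480.1 CPM in spleen. Eif3m had 108.5 and 112.1 CPM in colon 1 and colon 2, against 164.8 CPM in spleen. The others of the 6 were Eif3e, Eif3k and Eif3l. Eif3e had 185.9 and 211.4 CPM in colon 1 and colon 2, against 256.4 CPM in spleen. Summed over subunits e, f, h, k, l and m, the level was 1245.6 and 1268.9 CPM in colon 1 and colon 2, against 1761.2 CPM in spleen. These subunits were put together after their values were seen, so the sum describes the choice and is no evidence of a group.

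The other 7 eIF3 subunits were within 1.5-fold of spleen in both colon libraries. Eif3a, the largest subunit (19:60761117-60790658), had 155.6 and 153.2 CPM in colon 1 and colon 2, against 158.4 CPM in spleen. Summed over subunits a, b, c, d, g, i and j1, the level was 848.2 and 888.5 CPM in colon 1 and colon 2, against 840.0 CPM in spleen. Within that set the ratios ran between -0.15 and 0.15 in colon 1 and between -0.23 and 0.41 in colon 2, with Eif3i lowest (-0.45 to -0.01) and Eif3c highest (0.15 to 0.68) in colon 2. With totals without ribosomal protein genes Eif3a (-0.22 and -0.27) and Eif3i (-0.35 and -0.45) were below spleen in colon 1 and colon 2. As background, subunits e, f, h, k, l and m belong with a and c to the octameric core of mammalian eIF3, whereas b, g and i form a module at its edge. The 6 subunits that were lower with intervals that exclude 0 are core subunits, but they were put together after their values were seen. The intervals of the core subunit a include 0 in both colon libraries, and c was above spleen in both. Eif3i of the edge module was also below spleen in both (-0.15 and -0.23). The match with the core is therefore not read as a result. Eif3m overlaps Ccdc73, and Eif3j1 overlaps Spg11, on the opposite strand, and whether the counting used strand is not given in the sources used here.

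**Figure D3:**
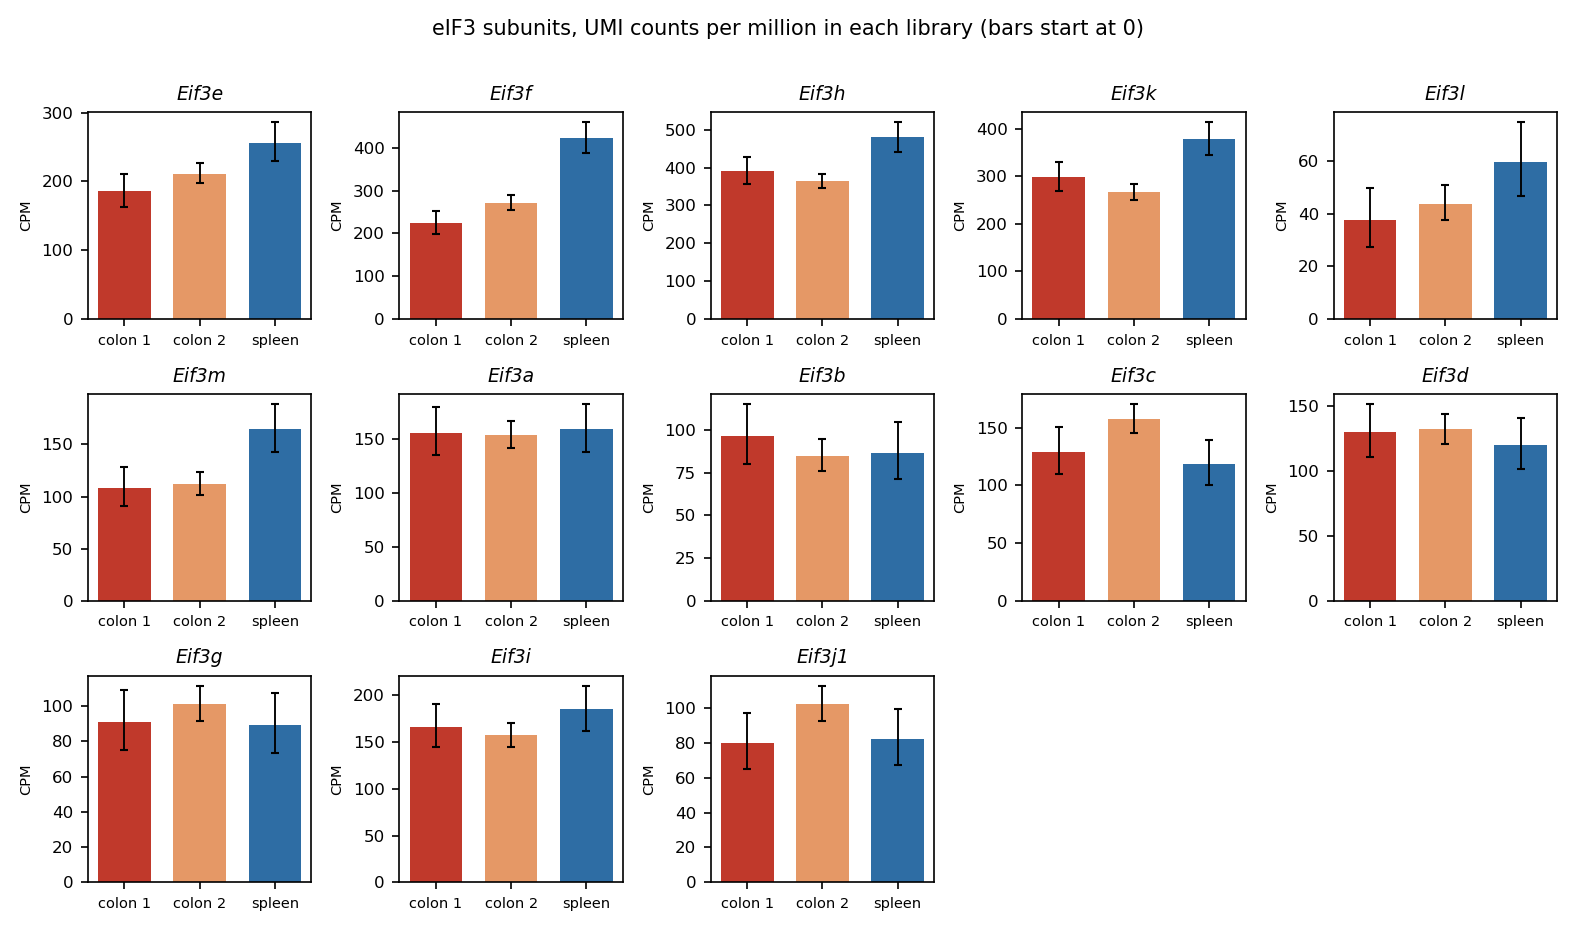
CPM of the 13 measured eIF3 subunit genes in colon 1, colon 2 and spleen, with 95% exact Poisson intervals as error bars (counting error only). The 6 subunits from Eif3e to Eif3m lie below spleen in each colon library, whereas the other 7 lie within 1.5-fold of spleen, on either side of it.

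Of the cap-binding complex, the RNA of Eif4e was higher in colon Tregs. Eif4e (3:138526179-138559696) had 114.1 CPM in colon 1 and 104.7 CPM in colon 2, against 60.51 CPM in spleen, with log2 ratios of 0.92 (0.50 to 1.34) and 0.79 (0.43 to 1.16). Eif4ebp1, which encodes the eIF4E-binding protein that mTORC1 switches off (8:27260329-27276674), had 52.66 CPM in colon 1 and 36.77 CPM in colon 2, against 19.11 CPM in spleen. Its log2 ratios of 1.46 (0.77 to 2.20) and 0.94 (0.31 to 1.63) were the highest of all members by their mean, on 66 UMIs from 37 cells in colon 1 and 24 UMIs from 17 cells in spleen. Eif4ebp2, the related binding protein, had 52.66 and 40.09 CPM in colon 1 and colon 2, against 43.79 CPM in spleen. Eif4enif1, whose product carries eIF4E into the nucleus, had 11.97 CPM in colon 1 and 15.32 CPM in colon 2, against 28.66 CPM in spleen, on 15, 60 and 36 UMIs, and it was the member with the lowest mean log2 ratio. Its gene is one of the sparse members, and its opposite-strand overlap is with Drg1.

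The scaffold and helicase genes of eIF4F differed less. Eif4g1 (16:20668313-20692884) had 110.1 and 146.6 CPM in colon 1 and colon 2, against 102.7 CPM in spleen, and the interval of its ratio excluded 0 in colon 2 alone. Eif4g2, which encodes a scaffold relative that does not bind eIF4E, had 365.5 and 465.2 CPM in colon 1 and colon 2, against 351.9 CPM in spleen. Eif4a1, the main helicase gene, had 323.96 and 283.4 CPM in colon 1 and colon 2, against 273.1 CPM in spleen. With scaling to totals without ribosomal protein genes, the ratios of Eif4g1, Eif4g2 and Eif4a1 differed in sign between the colon libraries. Eif4a2 had 136.4 and 164.4 CPM in colon 1 and colon 2, against 172.8 CPM in spleen, and its gene overlaps Rfc4 on the opposite strand. Eif4b, a helicase cofactor, had 225.8 and 263.5 CPM in colon 1 and colon 2, against 285.04 CPM in spleen. Eif4h, another helicase cofactor, had 165.2 and 137.4 CPM in colon 1 and colon 2, against 116.2 CPM in spleen, and Eif4e3, a cap-binding relative, had 37.50 and 37.53 CPM in colon 1 and colon 2, against 27.87 CPM in spleen. Eif4e2 and Eif4g3 had intervals that include 0 in both colon libraries, and so had Eif4a3, the helicase of the exon junction complex.

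Factors of subunit joining and of eIF5A were near level. Eif5, which makes eIF2 hydrolyse its GTP (12:111538016-111546752), had 130.9 and 122.04 CPM in colon 1 and colon 2, against 148.9 CPM in spleen. Eif5b, which joins the subunits, had 100.5 and 130.2 CPM in colon 1 and colon 2, against 101.9 CPM in spleen. Eif6, which keeps free large subunits from joining, had 91.76 and 101.9 CPM in colon 1 and colon 2, against 93.95 CPM in spleen. None of these exceeded 1.5-fold in either colon library. Eif5a, whose hypusine-bearing product helps ribosomes past difficult peptide bonds (11:69916714-69921958), had 667.9 and 697.8 CPM in colon 1 and colon 2, against 617.1 CPM in spleen. Its log2 ratios of 0.11 and 0.18 turned to -0.08 and -0.04 with totals without ribosomal protein genes. The paralog Eif5a2 met the 1.5-fold rule, at 14.36 and 14.30 CPM in colon 1 and colon 2, against 7.962 CPM in spleen, but on 18, 56 and 10 UMIs, and both intervals include 0.

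As sums, initiation and elongation factors parted. Elongation factors summed to 8998.2 CPM in colon 1 and 8712.8 CPM in colon 2, against 11964.7 CPM in spleen, with log2 ratios of -0.41 (-0.45 to -0.38) and -0.46 (-0.49 to -0.43). Without Eef1a1 the ratios were -0.50 and -0.42. Initiation factors summed to 8444.5 and 9026.6 CPM in colon 1 and colon 2, against 7908.0 CPM in spleen, with log2 ratios of 0.09 (0.06 to 0.13) and 0.19 (0.16 to 0.22). That higher sum rested on 1 gene, since without Eif1 the ratios were -0.11 (-0.16 to -0.06) and -0.04 (-0.08 to -0.01).

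Ribosomal protein genes, with 85 measured of 87 row names, differed by more than either class of factors. They summed to 171925.5 CPM in colon 1 and 159734.3 CPM in colon 2, against 277110.6 CPM in spleen, with log2 ratios of -0.69 (-0.70 to -0.68) and -0.79 (-0.80 to -0.79). Of the 85, 81 were lower in both colon libraries, and 51 were at least 1.5-fold lower in both. The set was taken by name, so it holds sparse paralogs such as Rps4l and Rpl36al. It also holds Rps19bp1, which by its name encodes an RPS19-binding protein and no ribosomal protein. Rps19bp1 (0.39 and 0.39) was 1 of the 2 genes higher in both colon libraries. Over all 85 genes the median ratio was -0.67 in colon 1 and -0.79 in colon 2. Set against them, elongation factors had 52.3 and 54.5 UMIs per 1000 ribosomal protein UMIs in colon 1 and colon 2, against 43.2 in spleen. Initiation factors had 49.1 and 56.5 per 1000 in colon 1 and colon 2, against 28.5 in spleen. In log2, the colon to spleen ratio per ribosomal protein UMI was 0.28 and 0.34 for elongation factors and 0.78 and 0.99 for initiation factors. By this measure all 9580 genes summed gave 0.69 in colon 1 and 0.80 in colon 2. Initiation factors without Eif1 gave 0.58 and 0.75, below all genes, and elongation factors were further below. A ratio above 0 per ribosomal protein UMI is therefore not particular to the factors. Summed over the 4 listed eEF1B genes, Eef1e1 included, there were 10.1 UMIs per 1000 in both colon libraries, against 9.70 in spleen. Per ribosomal protein UMI, the log2 ratios in colon 1 and colon 2 were 0.02 and 0.01 for Eef1b2, -0.02 and 0.10 for Eef1g, and 0.81 and 1.11 for Eef1e1.

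These ratios depend on what the counts are divided by, because the ribosomal protein genes hold such a large share of all UMIs. With totals without ribosomal protein genes, the median log2 ratio over all 9580 genes moved to -0.19 in colon 1 and -0.21 in colon 2, and the summed initiation factors to -0.10 and -0.03. A scaling shifts all genes alike, so the median of the 60 factors stands at -0.14 in colon 1 and -0.05 in colon 2 relative to that of all genes whichever is used. The sign of a member's mean log2 ratio was kept in 49 of 60 members under those totals. Elongation factor sums, and Eef1a1, Eef1b2, Eef1d and Eef1g singly, were below spleen in both colon libraries with all-gene totals, totals without ribosomal protein genes, TMM and medians of ratios. Per ribosomal protein UMI the elongation sum was higher in colon, as given above, and so were Eef1a1 (0.32 and 0.32 in colon 1 and colon 2) and Eef1d (0.32 and 0.12). All genes summed were higher still by that measure (0.69 and 0.80).

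**Figure D4:**
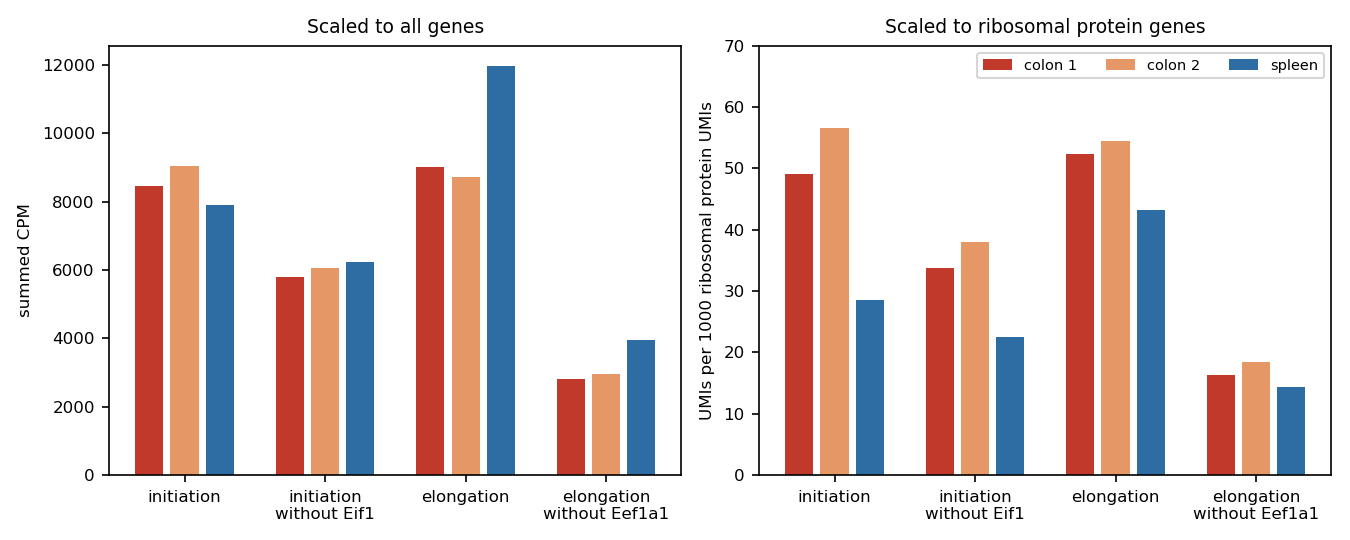
Summed levels of the 52 initiation and 8 elongation factor genes in colon 1, colon 2 and spleen, scaled to all UMIs (left, summed CPM) and to ribosomal protein UMIs (right), each also without the gene with most UMIs; no intervals are drawn. Elongation factors are lower in colon per UMI of all genes but higher per ribosomal protein UMI. All genes summed, not drawn, are also higher per ribosomal protein UMI, by log2 0.69 in colon 1 and 0.80 in colon 2. Initiation factors are 49.1 and 56.5 per 1000 in colon 1 and colon 2, against 28.5 in spleen, while their higher CPM is not seen without Eif1 and reverses with totals without ribosomal protein genes.

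Single cells showed a link between elongation factors and ribosomal proteins within each library. Ribosomal protein genes held a median of 16.5% of a cell's UMIs in colon 1 and 15.2% in colon 2, against 27.4% in spleen, and the middle of the cells (5th to 95th percentile) lay between 10.7% and 24.5% in colon 1, between 9.70% and 23.1% in colon 2, and between 16.4% and 38.9% in spleen. The ranges overlap, and spleen cells are spread over the widest range. The median share of elongation factors was 0.839% in colon 1 and 0.824% in colon 2, against 1.14% in spleen, and that of initiation factors was 0.816% and 0.862% in colon 1 and colon 2, against 0.750% in spleen. To compare cells at equal depth, each was thinned to 1000 UMIs, which left out 9 colon 1, 28 colon 2 and 4 spleen cells. Factor shares were then taken among UMIs outside ribosomal protein genes, so that these cannot crowd them out. Across cells, the elongation factor share correlated with the ribosomal protein share at Pearson's r of 0.45 (Spearman's rho 0.38) in colon 1, 0.49 (0.45) in colon 2 and 0.61 (0.61) in spleen. For initiation factors r was 0.23 (0.19) in colon 1, 0.18 (0.15) in colon 2 and 0.11 (0.12) in spleen, and as a share of all UMIs it turned to -0.09 in spleen. All cells of a library share its preparation, so these values describe the libraries and carry no p-value. The ribosomal protein share itself correlated weakly with the logarithm of a cell's UMI count, at r of 0.13, 0.18 and 0.15 in colon 1, colon 2 and spleen.

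**Figure D5:**
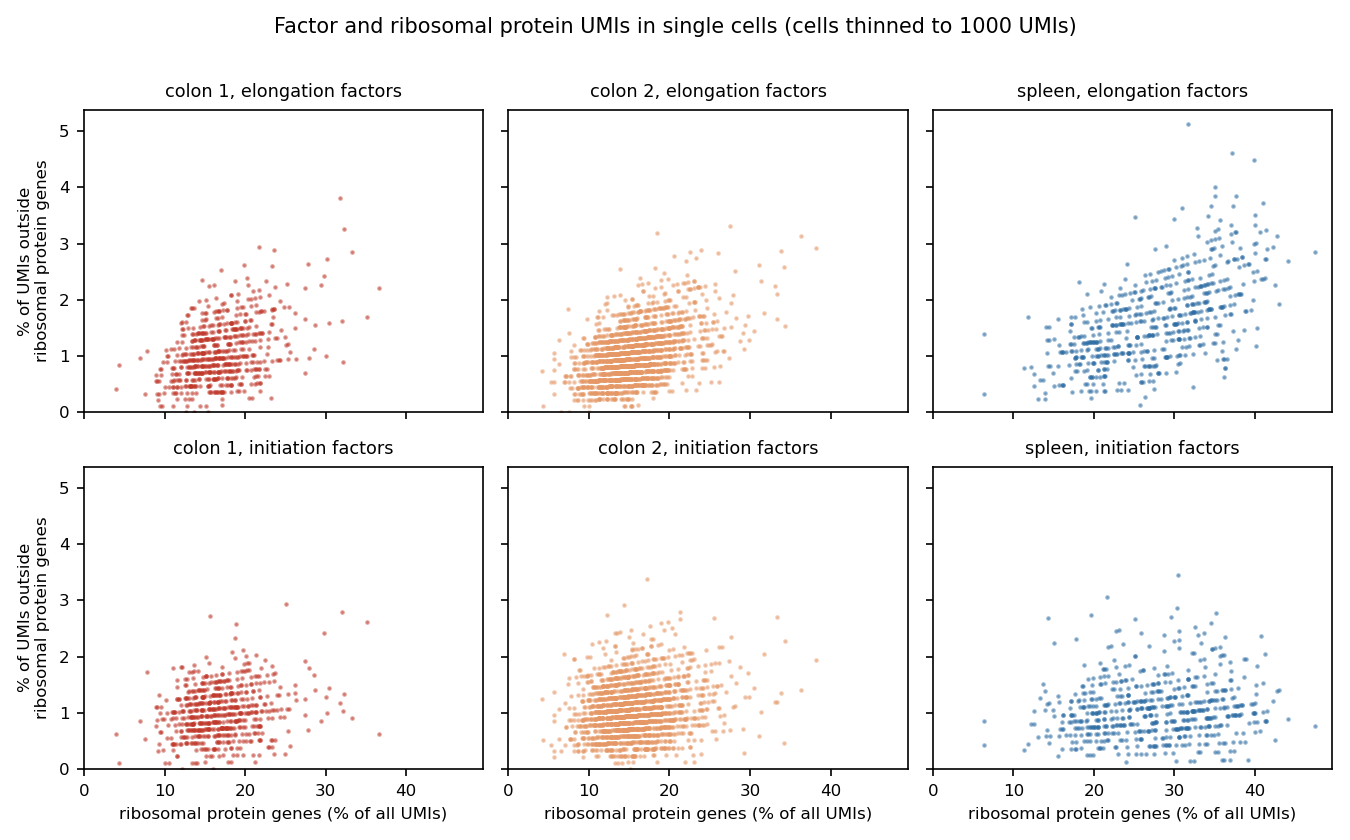
Each point is 1 cell thinned to 1000 UMIs, with the ribosomal protein percent of all UMIs on the x axis and the elongation factor (top) or initiation factor (bottom) percent of UMIs outside ribosomal protein genes on the y axis. Elongation factor shares climb with ribosomal protein shares in each library (r 0.45 in colon 1, 0.49 in colon 2 and 0.61 in spleen), and the clouds for initiation factors are flatter (r 0.23, 0.18 and 0.11).

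Single genes could be placed in this link where they had many UMIs. Among the genes outside the ribosomal proteins with at least 1000 UMIs after thinning, 4.03% of the 9580 genes, Eef1a1 ranked 5th in colon 1 (r = 0.34), 1st in colon 2 (r = 0.42) and 2nd in spleen (r = 0.53) for its correlation with the ribosomal protein share. The median of these genes was within 0.02 of 0 in each library, and 95% of them lay below 0.20 in colon 1, 0.18 in colon 2 and 0.27 in spleen. Eef1b2 had r of 0.25 in both colon libraries and 0.36 in spleen, and Eef1g had r of 0.21 and 0.19 in colon 1 and colon 2 and 0.17 in spleen. Eef2 stayed between 0.17 and 0.19. Eif1, the gene with the largest initiation factor count, had r of 0.07 and 0.05 in colon 1 and colon 2 and 0.03 in spleen. Eif3h had r of 0.15 and 0.10 in colon 1 and colon 2 and 0.02 in spleen, so in colon 1 it was close to Eef2. In the same order r was 0.10, 0.03 and 0.02 for Eif4g2 and 0.08, 0.08 and -0.03 for Eif5a. Few UMIs per cell keep a correlation near 0, so the ranks favour genes with many UMIs such as Eef1a1, and the sparser members could not be placed in this way.

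The known TOP mRNAs among the translation factors moved with the ribosomal proteins in direction but by less. Of 11 listed genes, Eef1a1, Eef1b2, Eef1d, Eef1g, Eef2, Eif3e, Eif3f, Eif3h, Eif4b, Pabpc1 and Tpt1, 10 were lower in both colon libraries, where 38.8% of all genes were, and Eef2 was the exception. Their median log2 ratio was -0.37 in colon 1 and -0.40 in colon 2, against 0.00 and 0.01 over all genes and -0.67 and -0.79 over the ribosomal protein genes. Tpt1, an abundant growth-related TOP mRNA, had 9673.3 and 9800.2 CPM in colon 1 and colon 2, against 11552.2 CPM in spleen. Pabpc1, the poly(A)-binding protein, had 844.2 and 907.7 CPM in colon 1 and colon 2, against 954.7 CPM in spleen.

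Around the factors, 4 of 8 measured genes of the integrated stress response, the program that eIF2 alpha phosphorylation switches on, were higher in colon by 1.5-fold in both libraries (17.1% of all genes) and none was lower (13.3%). The list holds 14 genes, and 3 of the 4 were also at least 2-fold higher (10.2%). Atf4, the transcription factor at the head of the response, had 470.78 and 470.05 CPM in colon 1 and colon 2, against 201.4 CPM in spleen. Ddit4, an inhibitor of mTORC1, had 597.6 and 523.2 CPM in colon 1 and colon 2, against 173.6 CPM in spleen. Ppp1r15a, the phosphatase subunit that reverses eIF2 alpha phosphorylation, had 366.2 and 408.8 CPM in colon 1 and colon 2, against 201.4 CPM in spleen. Atf3 had 31.92 and 55.15 CPM in colon 1 and colon 2 and 0 UMIs in spleen. Against a floor of 3 UMIs in spleen it was 13.4-fold and 23.1-fold higher. The log2 intervals were wide, at 2.09 to 6.08 in colon 1 and 2.96 to 6.82 in colon 2. Ddit3, another target, was below spleen in each but within 1.5-fold, with 22.34 and 25.53 CPM in colon 1 and colon 2, against 33.44 CPM in spleen, and Psat1, a serine synthesis enzyme, had 13.56 CPM in colon 1 and 34.47 CPM in colon 2, against 35.03 CPM in spleen. Only the colon was digested with enzymes, which cannot be told apart from tissue here. The median of the 8 log2 ratios was 0.69 in colon 1 and 0.86 in colon 2.

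Genes of mTORC1 and MNK signalling to translation had 14 of 17 members measured, of which 5 were higher (17.1% of all genes) and 1 was lower (13.3%) by 1.5-fold in both colon libraries. Rheb, the GTPase that activates mTORC1, had 158.8 and 141.7 CPM in colon 1 and colon 2, against 42.996 CPM in spleen. Tsc1 and Tbc1d7, parts of its inhibitor complex, also met that rule, but on few UMIs: 20, 67 and 11 for Tsc1 and 7, 23 and 3 for Tbc1d7 in colon 1, colon 2 and spleen. So did Mknk1, on 19, 50 and 10 UMIs, and Mknk2, which encode kinases of eIF4E. Mknk2 had 193.9 and 222.1 CPM in colon 1 and colon 2, against 125.8 CPM in spleen. Pdcd4, which blocks the helicase eIF4A, was the gene that was lower, with 102.9 CPM in colon 1 and 160.1 CPM in colon 2, against 266.7 CPM in spleen. By these ratios the list holds activators and inhibitors of the same pathway on the higher side. For the inhibitors this is uncertain, since the intervals of Tbc1d7 include 0 in both colon libraries. For Tsc1 the interval includes 0 in colon 1 (-0.26 to 2.07) and narrowly excludes it in colon 2 (0.04 to 2.04).

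The remaining lists of translation genes had few members past 1.5-fold in both colon libraries. By that rule 17.1% of all genes were higher and 13.3% lower, and the shares below are to be read against these. Of 22 measured cytosolic aminoacyl-tRNA synthetases, 3 were higher (13.6%) and 1 was lower (4.55%), both shares below those of all genes. Eprs, which charges tRNAs with glutamate and proline, had 165.2 and 197.1 CPM in colon 1 and colon 2, against 56.53 CPM in spleen, whereas Lars, which charges leucine, had 15.96 and 18.38 CPM in colon 1 and colon 2, against 39.01 CPM in spleen. Among 13 genes of the poly(A) tail, termination and recycling, Etf1, the release factor that reads stop codons, and Pelo, which rescues stalled ribosomes, were higher. Etf1 had 108.5 and 119.2 CPM in colon 1 and colon 2, against 70.07 CPM in spleen. Of 8 enzymes that make hypusine on eIF5A or diphthamide on eEF2, Dph3 was higher and Dph6 lower, and of 8 mitochondrial translation factors only Mrrf, with 5, 26 and 22 UMIs, was past 1.5-fold, as lower. Of 18 ribosome biogenesis genes Bop1 alone was past 1.5-fold, as higher. Of 7 genes for other RNA helicases and internal ribosome entry, Ddx3x was higher, with 304.8 and 365.4 CPM in colon 1 and colon 2, against 155.3 CPM in spleen, and Pdcd4 was lower.

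The colon libraries were also set against each other, and the spread between them holds counting error as well as library to library variation. Over the members, the log2 ratio of colon 2 over colon 1 had a standard deviation of 0.48, compared with 0.62 over all genes with the UMI minimum. Sparse members enter it with full weight, such as Eif2b4 at 2.70 on 4 UMIs in colon 1. How much of the spread is counting error was not measured. At least 2-fold apart were 3 of 60 members (5%), against 10.1% of all genes, again not matched by UMI count. The 3 members were Eif2b4, Eif2ak1 and Eif2ak3, each with 29 or fewer UMIs in colon 1. Among ribosomal protein genes Rpl26, singled out after its values were seen, had 101.3 CPM in colon 1 and 2.298 CPM in colon 2, against 175.96 CPM in spleen. No member showed a gap as large as that of Rpl26. Rpl10l (82.19, 17.11 and 143.3 CPM in colon 1, colon 2 and spleen) and the sparse Rpl36al (19.15, 0 and 9.555 CPM) were also lower in colon 2 than in colon 1. The cause was not tested. The spleen values rest on a single library that both colon ratios share, and the spread between spleens was not measured.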

How the data were processed

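Single Tregs were profiled by inDrops. Per the submitters' processing notes, TopHat2 and SAMtools were used with the mm10 genome, whereas what each tool did, the annotation and how UMIs were collapsed have no source here. The table deposited by the authors holds raw UMI counts per gene and cell, whole numbers for 23725 genes, and every column was matched to a labelled cell, with 0 columns left out. Cells were grouped by library as the labels give it. UMIs were added up within each library and expressed per 1000000 UMIs of all genes (CPM). Ratios of each colon library to spleen carry a 95% interval from the exact conditional binomial distribution, and CPM an exact Poisson interval. For ratios, a library with fewer than 3 UMIs of a gene was set to a floor of 3 UMIs. UMIs mark molecules, yet these intervals and the floor cover counting error only. The intervals treat UMIs as independent, although several can come from 1 cell. Calls needed a fold of 2 or 1.5 in both colon libraries, and no count model was fitted, because each tissue is 1 sample. Doublets were not called. Cells with UMIs of 2 or more markers of another cell type were left out in an alternative. For shares per cell, cells were thinned to 1000 UMIs (random seed 7), and genes with at least 1000 thinned UMIs entered the correlations by gene. Gene positions and overlaps come from GENCODE vM21 and start sequences from RefSeq (GRCm38.p6), both of the mm10 build. Scaling factors were also computed with edgeR 4.0.16 (TMM) in R 4.3.3 and as medians of ratios, and the rest with Python 3.11.15, numpy 2.4.6, scipy 1.17.1 and pandas 2.3.3. The ratio code was tested on simulated data. Values are given in full for the 8 members with the highest and the 8 with the lowest mean log2 ratio and for factors chosen by role, and for other lists up to 4 genes with the largest ratios. The members, lists and roles were chosen with earlier results of these data known.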

Additional observations from a re-analysis of the deposited data

How the results depend on the processing

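For ratios of single members, under scaling by TMM or medians of ratios, in thinned cells, in cells with 1000 to 4000 UMIs, and without cells of shared barcodes or of other markers, all 60 stayed within their counting intervals, and under totals without ribosomal protein genes 54 did and 6 moved. Those totals gave 1 member at least 2-fold lower, 2 at least 1.5-fold higher and 10 at least 1.5-fold lower. They moved the median of the factors to -0.33 in colon 1 and -0.25 in colon 2, the initiation sums to -0.10 and -0.03, the elongation sums to -0.61 and -0.67 and the ribosomal protein sums to -0.88 and -1.01. TMM gave -0.43 for elongation in colon 2 and -0.66 and -0.76 for ribosomal proteins, and medians of ratios gave -0.37 and -0.41 for elongation, 0.24 for initiation in colon 2 and -0.65 and -0.75 for ribosomal proteins in colon 1 and colon 2. Thinned cells gave 1 member at least 2-fold higher and 3 at least 1.5-fold lower, an elongation to ribosomal protein ratio of 0.38 and a ribosomal protein sum of -0.81 in colon 2. Cells with 1000 to 4000 UMIs gave 1 member at least 2-fold higher and 1 lower, and ribosomal protein sums of -0.70 and -0.82. With 1 colon library left out, 1 member was at least 2-fold higher either way, from 1 to 4 were at least 2-fold lower and from 7 to 13 at least 1.5-fold lower (13 in colon 1 alone). Without Eef1a1, elongation sums were -0.50 and -0.42 and their ratios to ribosomal proteins 0.19 and 0.38. In cells as deposited the elongation correlations were 0.51, 0.58 and 0.69 in colon 1, colon 2 and spleen, and those of initiation 0.23 in colon 2 and 0.16 in spleen. As shares among all UMIs they were 0.34, 0.39 and 0.45 for elongation and 0.10, 0.06 and -0.09 for initiation, the last with its sign turned. The cause was not tested beyond each setting's own construction. Depth limits the members with under 30 UMIs in a library, whose intervals span more than 1 log2 unit. No paired analysis was possible because no animal or pairing links the libraries.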
